A study of Rattus norvegicus with 9 samples.

Results

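Rab proteins are small GTPases that mark the membranes of the cell, and the 43 Rab genes described here were taken from an array survey of rat prefrontal cortex. A gene was counted as a Rab gene when its only symbol in the platform annotation was Rab followed by a number and at most 1 letter. Rab3a and the regulators and effectors whose symbols begin with Rab, such as Rab3il1 and Rab11fip4, were left out. The 43 genes were read by 59 probe sets, of 10411 genes and 15866 probe sets on the array. Of these, 37 genes with 51 probe sets lay above the filter on low values, which left out the 40% of probe sets with the lowest mean over the arrays and kept 6793 genes with 9520 probe sets. The rule used symbols alone and no measured value.

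The samples were prefrontal cortex from 9 untreated inbred male Lewis rats of 200 to 250 g, 1 array per rat, taken 12 days after the last behavioural test. Inbred rats are close to genetically identical, so the study asked whether mRNA levels varied with behaviour among animals that share a genotype. All 9 rats form 1 group, and each carries 4 labelled values, for acoustic startle, locomotion, plus maze and sugar feeding, with no unit. The plus maze is not among the behavioural tests that the protocol and the design text name for this experiment, so how its value was obtained is not known here. Startle lay between 67.7 and 501 (276 ± 142), locomotion between 536 and 1102 (772 ± 173), the plus maze value between 0 and 18.7 (6.68 ± 7.36) and sugar feeding between 0.8 and 4.7 (2.17 ± 1.19; SD, n = 9 throughout).

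A Rab protein cycles between a GTP-bound form on a membrane, where it binds effectors such as tethers and motor proteins, and a GDP-bound form that is withdrawn into the cytosol. Guanine nucleotide exchange factors (GEFs) switch it on, GTPase-activating proteins (GAPs) switch it off, and lipid tails added by the geranylgeranyl transferase anchor it. In neurons Rab proteins are known for moving receptors and membrane into dendrites and axons and for bringing synaptic vesicles to their release sites. Rab1, Rab2, Rab6 and Rab18 act at the endoplasmic reticulum (ER) and Golgi, Rab5 on early endosomes, Rab4, Rab11 and Rab14 in recycling, Rab7 and Rab9 on late endosomes, Rab3, Rab26 and Rab27 in secretion, and Rab8, Rab10, Rab13, Rab23 and Rab28 in polarised exocytosis or the cilium.

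Before any relation is read, rats 8 and 9 need separate mention. Both lay beyond the range of the other 7 rats on the same side for 26.9% of all 9520 probe sets tested, so many of the correlations below are also given without these animals. Summed red blood cell markers, both listed genes on the array above the filter, were 12.30 and 11.16 on the log2 scale in rats 8 and 9, against 10.13 to 11.28 in the other 7 rats. Markers of the labelled tissue were present: 6 of 6 neuron, 6 of 6 astrocyte and 5 of 5 oligodendrocyte markers on the array passed the filter. The summed neuron markers lay between 14.32 (rat 3) and 14.59 (rat 4). Of the 5 striatal markers on the array, 2 passed the filter, and Rgs9, Adora2a and Drd2 stayed below it. The summed striatal markers lay between 9.25 and 9.74. For the olfactory bulb 1 of 2 markers on the array passed, with Th below the filter. For the choroid plexus 1 of 4 passed, with Ttr, Kl and Kcnj13 below it. In rat 3 the summed astrocyte (13.33), microglia (9.32) and endothelial (10.28) markers were each the highest of the 9 rats, and the neuron markers the lowest. With startle, which was also highest in rat 3, r was 0.551, 0.567 and 0.551 for the first 3 sums. It was -0.491 for the neuron and -0.233 for the oligodendrocyte markers. The part of these differences in the Rab relations was not tested. In bulk tissue, fewer cells of a type and less RNA per cell cannot be told apart.

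The Rab genes lie on 19 chromosomes of the rat genome, and 35 of the 43 had a promoter window in the RefSeq sequences of build GRCr8 (250 bases before to 50 bases after the gene start). Rab28 is shown because it had the smallest p of the 51 probe sets against startle. Rab29 with Rab6a, and Rab4a with Rab9a, are shown because their levels had the closest correlations across the rats of all Rab pairs. Capitals mark the SP1-type GC box GGGCGG or its complement CCGCCC. The windows are chr14:73458178-73458477 (plus strand) for Rab28, chr13:45859788-45860087 (plus) for Rab29, chr1:164369783-164370082 (plus) for Rab6a, chr19:68692831-68693130 (plus) for Rab4a and chrX:31609839-31610138 (plus) for Rab9a.
Rab28: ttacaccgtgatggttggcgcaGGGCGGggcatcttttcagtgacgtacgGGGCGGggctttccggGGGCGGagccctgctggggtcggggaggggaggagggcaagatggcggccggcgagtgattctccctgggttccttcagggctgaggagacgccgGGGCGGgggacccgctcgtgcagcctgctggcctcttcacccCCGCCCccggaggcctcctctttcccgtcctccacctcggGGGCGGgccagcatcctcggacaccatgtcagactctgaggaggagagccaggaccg
Rab29: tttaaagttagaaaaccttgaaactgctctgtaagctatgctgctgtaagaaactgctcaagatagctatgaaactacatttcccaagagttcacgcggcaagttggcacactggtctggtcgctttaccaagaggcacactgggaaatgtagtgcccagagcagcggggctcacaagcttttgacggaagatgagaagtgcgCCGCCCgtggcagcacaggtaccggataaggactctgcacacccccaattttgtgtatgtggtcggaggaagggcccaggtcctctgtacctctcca
Rab6a: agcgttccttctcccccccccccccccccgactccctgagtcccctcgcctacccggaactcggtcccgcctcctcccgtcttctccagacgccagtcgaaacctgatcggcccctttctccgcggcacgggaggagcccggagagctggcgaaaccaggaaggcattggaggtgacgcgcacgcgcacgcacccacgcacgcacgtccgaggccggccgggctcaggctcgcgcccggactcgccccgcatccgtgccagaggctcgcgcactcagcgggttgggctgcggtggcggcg
Rab4a: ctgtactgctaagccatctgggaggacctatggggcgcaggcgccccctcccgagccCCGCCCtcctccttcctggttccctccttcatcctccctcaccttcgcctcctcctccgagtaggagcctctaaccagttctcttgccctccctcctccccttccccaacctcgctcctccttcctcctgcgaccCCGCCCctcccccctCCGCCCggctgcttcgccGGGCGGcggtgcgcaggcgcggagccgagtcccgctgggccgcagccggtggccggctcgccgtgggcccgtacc
Rab9a: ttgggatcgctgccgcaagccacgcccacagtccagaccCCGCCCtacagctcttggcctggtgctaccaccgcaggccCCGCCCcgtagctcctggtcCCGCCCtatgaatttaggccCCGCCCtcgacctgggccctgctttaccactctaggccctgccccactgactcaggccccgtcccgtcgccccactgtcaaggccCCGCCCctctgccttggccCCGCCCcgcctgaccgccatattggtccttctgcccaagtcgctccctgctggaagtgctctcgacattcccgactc
Rab28 and Rab9a hold 6 GC boxes each and Rab4a holds 4, whereas Rab29 holds 1 and Rab6a none. The windows of Rab29 and Rab6a both hold a CCAAT box, a motif found in 37.4% of the windows of all tested genes. Whether any motif bears on the correlation of a pair was not tested.

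A GC box on either strand was present in 30 of the 35 Rab windows (85.7%), against 64.7% of the 6347 windows of all tested genes and 33.1% of all 33469 windows. The 5 without one belong to Rab12, Rab25, Rab27b, Rab34 and Rab6a. The TATA box TATAAA was in 0 of 35 Rab windows, against 6.98% of tested genes and 14.2% of all windows. CCAAT occurred in 13 Rab windows (37.1%), close to 37.4% of tested genes and 37.5% of all windows. The cyclic AMP response element TGACGTCA was found in 1 Rab window (2.86%), that of Rab25, against 2.96% of tested genes. Its shorter form TGACG, which every TGACGTCA contains, was in 12 (34.3%), against 33.0% of tested genes. The Rab windows had a median of 23 CpG dinucleotides and 64.3% G and C, against 22 and 61.7% for tested genes and 7 and 51.7% for all windows. These are counts of letters in a window and say nothing of whether a factor binds there.

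**Figure D1:**
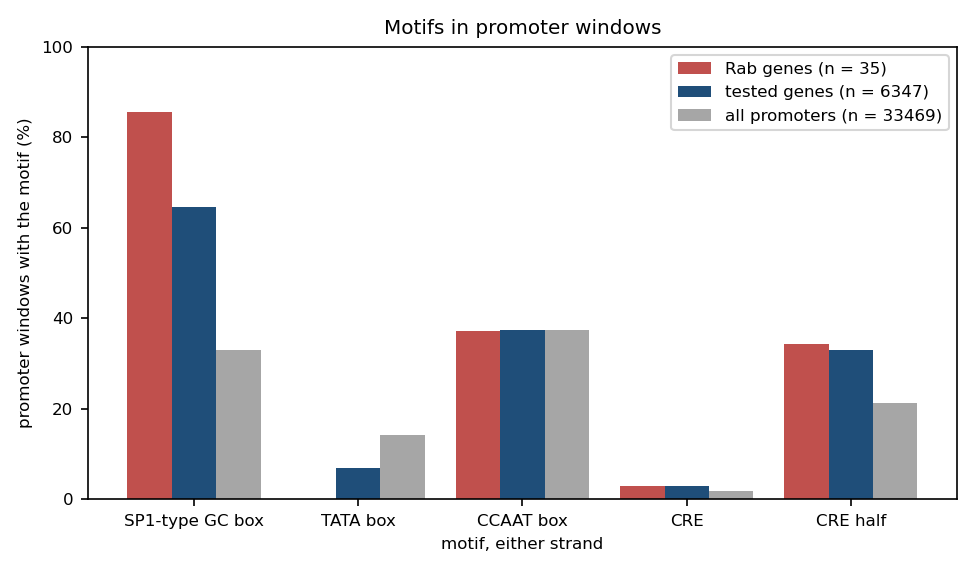
Share of promoter windows (y axis, percent) that hold each motif on either strand (x axis), for the Rab genes (35), all tested genes (6347) and all windows of the table (33469). The Rab genes stand highest for the GC box (85.7%) and have no bar for the TATA box, and the other motifs differ little from the tested genes.

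No Rab gene was related to any of the 4 behaviours in a limma fit of log2 expression on the behaviour with Benjamini-Hochberg adjustment over all 9520 probe sets. The smallest adjusted p among the Rab probe sets was 0.362 for startle, 1.00 for locomotion, 0.999 for the plus maze and 1.00 for sugar feeding. No probe set of the whole array passed either, that is 0 of 9520 (0.0%) for each behaviour. At an unadjusted limma p under 0.05, startle counted 1 of the 51 Rab probe sets (Rab28, positive), against 13.2% of all probe sets, 8.9% with a positive and 4.34% with a negative slope. The plus maze counted 1 (Rab11a, positive), against 2.99% of all, 2.45% positive and 0.546% negative. Locomotion counted 0, against 1.96% of all, 0.62% positive and 1.34% negative. Sugar feeding counted 0, against 1.4% of all, 0.767% positive and 0.63% negative. The difference of the Rab counts from these shares was not tested. The counts changed with the animals included. Without rats 3 and 1 together, startle counted 7 of 51 (13.7%), above the 7.28% of all probe sets in that fit. Dropping 1 rat gave 3 of 51 for locomotion without rat 1 (5.88%, against 9.84% of all) and 5 of 51 for sugar feeding without rat 4 (9.80%, against 14.0% of all). None of these passed after adjustment.

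The slopes, given in log2 units per SD of the behaviour, were small. For startle they ran from -0.35 to 0.23 with a median of 0.020, against a median of 0.021 over all probe sets, and 28 of 51 were positive against 61.5% of all. Locomotion slopes ran from -0.26 to 0.19 (median 0.0045 against -0.010 over all), 27 of them positive against 41.0% of all. In the plus maze the range was -0.35 to 0.15 (median 0.035 against 0.011 over all), with 35 positive against 58.2% of all. Sugar feeding gave -0.20 to 0.11 (median -0.0083 against -0.0030 over all), with 20 positive against 46.8% of all. The 95% interval of the slope stayed within a change of 0.5 log2 units per SD in either direction for 48 Rab probe sets in startle, 48 in locomotion, 49 in the plus maze and 48 in sugar feeding. The median size of the interval bound farther from 0 was 0.22, 0.20, 0.20 and 0.20 in the same order.

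**Figure D2:**
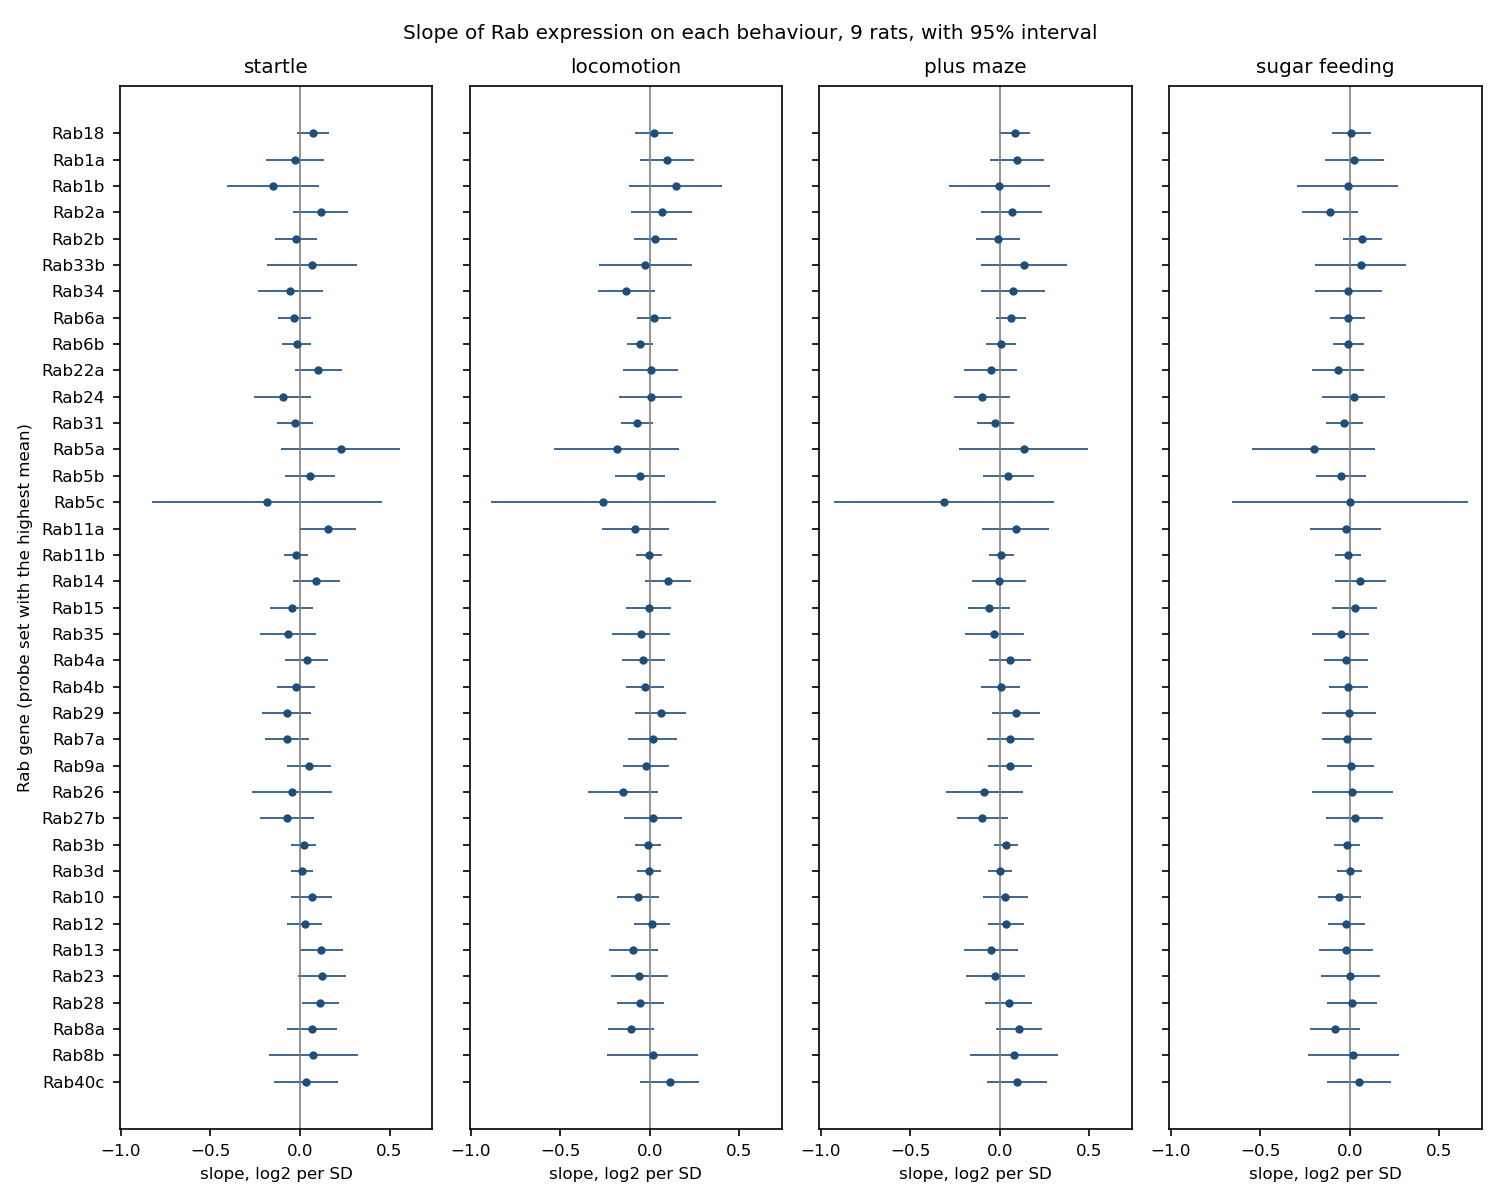
Slope of log2 expression per SD of each behaviour (x axis) for the 37 tested Rab genes (y axis, 1 probe set per gene), with points for the limma estimate over 9 rats and bars for the 95% interval. Only the startle interval of Rab28 leaves out 0 among these probe sets, and Rab5a and Rab5c have the widest intervals.

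The ER and Golgi Rabs are led by the Rab1 and Rab2 proteins, which carry traffic between the ER and the Golgi, and by Rab6a and Rab6b, which act within and out of the Golgi. Of their 11 tested probe sets from 9 genes, 9 had a positive slope and 2 a negative one with the plus maze (median 0.065), and none reached an unadjusted p of 0.05. Startle gave 5 positive and 6 negative slopes, locomotion 7 and 4, and sugar feeding 4 and 7, with medians of -0.019, 0.022 and -0.0083. Rab18, a protein of the ER and of lipid droplets, led the group in the plus maze. It lay between 9.45 (rat 5) and 9.76 (rat 6) with a median of 9.64 on the log2 scale. Rats 1, 2 and 6, the animals with the highest plus maze values, also had the highest Rab18. The slope was 0.083 ± 0.038 (SE, n = 9, limma adjusted p = 0.999). Pearson's r was 0.699 and Spearman's rho 0.748 (exact permutation p = 0.0368 and 0.0257), r was 0.548 without rats 2 and 6, and 0.650 without rats 8 and 9. Rab6a (11.92 to 12.24, median 12.16) had a plus maze slope of 0.065 ± 0.037 (SE, n = 9, limma adjusted p = 0.999), and its second probe set one of 0.048.

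Among the same group, Rab2a and Rab2b, which act between the ER and the Golgi, led the sugar feeding relations in opposite directions by their sets of highest mean. Rab2a lay between 9.64 (rat 4) and 10.38 (rat 1) with a median of 10.09. Its r with sugar feeding was -0.489 over 9 rats and 0.754 without rats 4 and 8 (exact permutation p = 0.186 and 0.0494), so the sign rests on the animals with the highest feeding values, and on rat 4 above all. Without rats 8 and 9, r was -0.510. Rab2b (8.49 to 8.94, median 8.68) had a positive sugar feeding slope of 0.071 ± 0.049 (SE, n = 9, limma adjusted p = 1.00), with r of 0.597 without rats 8 and 9. The second Rab2b set had the opposite sign, at -0.15 ± 0.11, so the direction for this gene is not settled. Rab34, a Golgi and ciliary Rab, had a locomotion slope of -0.13 ± 0.070 (SE, n = 9, limma adjusted p = 1.00). Its level was 4.02 in rat 1, the most active animal, and 4.38 to 4.81 in the other rats, and r was -0.556 over 9 rats but -0.057 without rats 1 and 3 and -0.570 without rats 8 and 9. Rab1a (10.33 to 10.95, median 10.80) had its lowest level in rat 3, the least active animal. Its r with locomotion was 0.447 over 9 rats and -0.341 without rats 1 and 3 (exact permutation p = 0.229 and 0.452), and 0.618 without rats 8 and 9. Rab1b, its close paralog, had a startle slope of -0.15 ± 0.11 (SE, n = 9, limma adjusted p = 0.564), with r of -0.404 over 9 rats and -0.223 without rats 8 and 9.

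Early endosome Rabs comprise the Rab5 proteins, which drive the fusion of endocytic vesicles, with Rab22a and Rab31, and Rab24, which is placed here for its link to endosome and autophagosome traffic. Their 9 probe sets from 6 genes split nearly evenly in startle (4 positive, 5 negative, median -0.021), locomotion (5 and 4, median 0.0043), the plus maze (5 and 4, median 0.023) and sugar feeding (4 and 5, median -0.030). Rab5c varied most of all Rab genes. It stood at 5.20 in rat 2 and at 8.42 in rat 7, a span of 9.34-fold, and the median was 6.35. Rat 7 was high and rat 2 low, and the other 7 rats lay between 6.15 and 7.13. With a plus maze slope of -0.31 ± 0.27 (SE, n = 9, limma adjusted p = 0.999), this spread did not follow the behaviour beyond its error. Rab24 (7.93 to 8.63, median 8.15) was highest in rat 5 and lowest in rat 2. Its slopes were -0.095 ± 0.070 in startle (limma adjusted p = 0.548) and -0.099 ± 0.070 in the plus maze (limma adjusted p = 0.999; SE, n = 9 each). The startle r was -0.431 over 9 rats, -0.581 without rats 3 and 1 and -0.227 without rats 8 and 9. In the plus maze r was -0.448 over 9 rats, -0.039 without rats 2 and 6 and -0.482 without rats 8 and 9. Rab31 (8.69 to 9.10, median 8.90) gave -0.071 ± 0.040 in locomotion (SE, n = 9, limma adjusted p = 1.00), with r of -0.606 over 9 rats, -0.387 without rats 1 and 3 and -0.541 without rats 8 and 9. Rab5a gave the largest sugar feeding slope in size, -0.20 ± 0.15 (SE, n = 9, limma adjusted p = 1.00), and its level is described with rats 8 and 9 below. Its r was -0.403 over 9 rats, -0.457 without rats 4 and 8 and -0.262 without rats 8 and 9. The slope without rats 8 and 9 was -0.040. Leaving out 1 rat at a time moved the slope between -0.67 and -0.044. The second Rab5a set had a sugar feeding slope of -0.13, of the same sign.

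**Figure D3:**
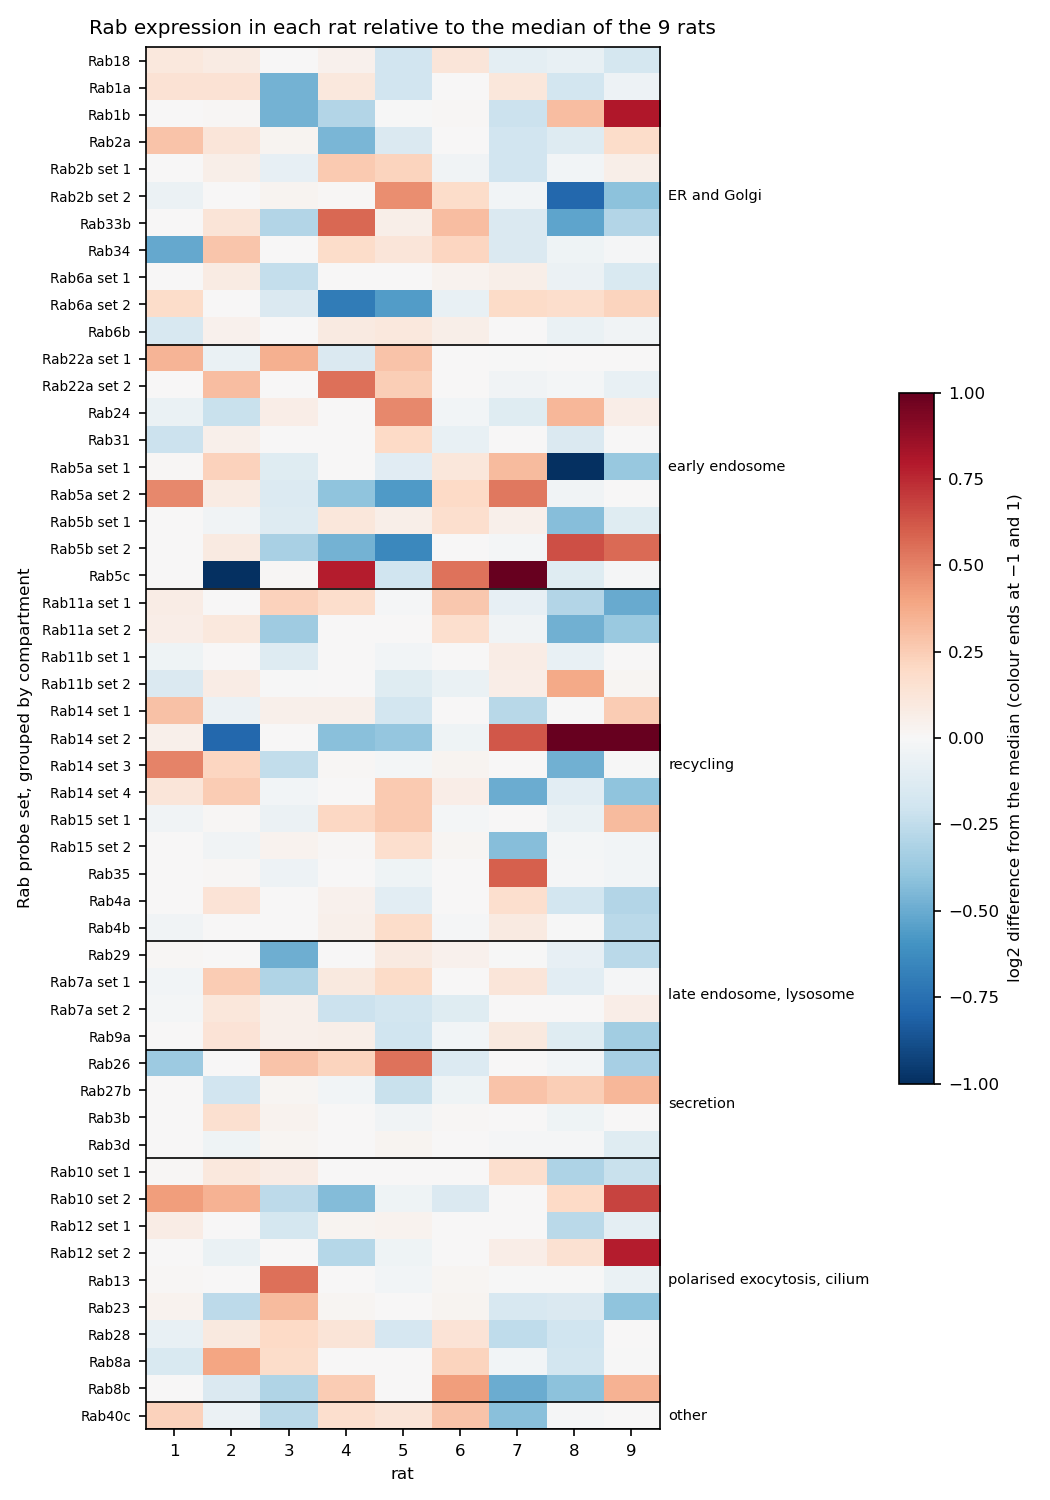
Log2 difference of each of the 51 tested Rab probe sets (rows, grouped by compartment) from its median over the 9 rats (columns), with red above and blue below the median and colours ending at -1 and 1. No block of rows shares 1 pattern, and single cells stand out, such as Rab5c in rats 2 and 7 and the second Rab14 set in rats 8 and 9.

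Recycling Rabs include Rab4a and Rab4b, which return cargo rapidly, Rab11a and Rab11b, which return it through the recycling endosome and bring receptors to dendritic spines, and Rab14, Rab15 and Rab35. Of 13 probe sets from 7 genes, 7 slopes were positive and 6 negative in startle (median 0.038), 6 and 7 in locomotion (median -0.0015), 8 and 5 in the plus maze (median 0.0093) and 5 and 8 in sugar feeding (median -0.0073). Rab11a, at 8.35 (rat 9) to 9.13 (rat 6) with a median of 8.86, had a startle slope of 0.16 ± 0.070 (SE, n = 9, limma adjusted p = 0.381). Its r was 0.615 and its rho 0.783 (exact permutation p = 0.0765 and 0.0172), with r of 0.559 without rats 3 and 1 and 0.639 without rats 8 and 9. The second Rab11a probe set (8.40 to 9.05, median 8.89) gave a startle slope of 0.062 ± 0.079 and r of -0.337 without rats 8 and 9, so the probe sets of this gene differed in sign among those 7 rats. That second set was the 1 Rab probe set with an unadjusted p under 0.05 in the plus maze, with a slope of 0.15 ± 0.066 (SE, n = 9, limma adjusted p = 0.999), where the first set gave 0.089. Rab14, at 10.30 (rat 7) to 10.87 (rat 1), had a locomotion slope of 0.10 ± 0.057 (SE, n = 9, limma adjusted p = 1.00) and a sugar feeding slope of 0.059 ± 0.063 (SE, n = 9, limma adjusted p = 1.00). Its other 3 sets gave sugar feeding slopes of 0.073, -0.046 and -0.0033. The locomotion r of Rab14 was 0.559 over 9 rats, 0.469 without rats 1 and 3 and 0.654 without rats 8 and 9. Rab15 (8.55 to 8.93, median 8.61) gave -0.061 ± 0.052 in the plus maze (SE, n = 9, limma adjusted p = 0.999), and its second set 0.016 ± 0.059.

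For late endosomes and lysosomes there were 4 probe sets from 3 genes, Rab7a, which directs traffic to the lysosome, Rab9a, which returns receptors to the Golgi, and Rab29, a Rab of the Golgi and lysosome. All 4 slopes were positive in the plus maze (0.010 to 0.091, median 0.059), against 58.2% of all probe sets, and none reached an unadjusted p of 0.05. Startle gave 2 positive and 2 negative slopes, locomotion 3 and 1, and sugar feeding 1 and 3. Their medians were -0.027, 0.010 and -0.0092. Rab7a lay between 9.71 (rat 3) and 10.26 (rat 2) with a median of 10.01. Its startle slope was -0.073 ± 0.055 (SE, n = 9, limma adjusted p = 0.558), with r of -0.438 over 9 rats, 0.316 without rats 3 and 1 and -0.799 without rats 8 and 9 (exact permutation p = 0.239, 0.495 and 0.0210). The startle relation of Rab7a thus turned with the animals included, and its second set had a slope of 0.020.

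The secretory group held 4 tested genes with 1 probe set each, Rab3b and Rab3d of regulated exocytosis, Rab26 of vesicle traffic and Rab27b of dense-core and lysosome-related granules. Rab3c, a Rab of synaptic vesicles, was below the filter at 2.97 to 3.30, and so was Rab27a at 2.70 to 2.81. Rab27b itself was near the filter, which stood at a mean of 3.22. It ran from 3.10 (rat 5) to 3.65 (rat 9), with a plus maze slope of -0.097 ± 0.064 (SE, n = 9, limma adjusted p = 0.999) and r of -0.483, which became -0.171 without rats 2 and 6 and -0.387 without rats 8 and 9. Rab26 (8.01 to 8.91, median 8.37) gave -0.15 ± 0.087 in locomotion (SE, n = 9, limma adjusted p = 1.00). The level of Rab3d spanned 1.10-fold, the least of the 51 probe sets.

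Polarised exocytosis and the cilium were represented by 9 probe sets from 7 genes, and this group had 7 positive and 2 negative startle slopes (median 0.068). Locomotion gave 4 and 5 (median -0.052), the plus maze 6 and 3 (median 0.035) and sugar feeding 3 and 6 (median -0.021). Rab28, a ciliary Rab needed by photoreceptors, had the smallest startle p of the Rab genes. It stood at 9.68 in rat 3, which startled most, at 9.28 in rat 8, which startled least, and lowest at 9.23 in rat 7, with a median of 9.48. Rats 5, 7 and 8, the animals with the 3 lowest startle values, had the 3 lowest Rab28 levels, while rat 1, with the next highest startle after rat 3, lay below the median at 9.41. The slope was 0.11 ± 0.047 (SE, n = 9, limma adjusted p = 0.362). Pearson's r was 0.686 and rho 0.800 (exact permutation p = 0.0455 and 0.0138). Without rats 3 and 1, r was 0.875 (exact permutation p = 0.0083), and without rats 8 and 9 it was 0.610 (exact permutation p = 0.150). Among 204 relations computed between Rab probe sets and behaviours, such unadjusted values do not pass adjustment.

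Rab13, a Rab of tight junctions and membrane outgrowth, had a startle slope of 0.12 ± 0.054 (SE, n = 9, limma adjusted p = 0.381), which was 0.013 without rat 3. Its level was 4.29 in rat 3 and 3.67 to 3.75 in the other 8 rats. Pearson's r was 0.634 over 9 rats and 0.244 without rats 3 and 1 (exact permutation p = 0.0172 and 0.596). Spearman's rho, which weighs rat 3 by its rank alone, was 0.828 over 9 rats, and r without rats 8 and 9 was 0.667 (exact permutation p = 0.0083 and 0.0028), with rat 3 still included. Rat 3 also had the highest summed astrocyte, microglia and endothelial markers, and their part in the Rab13 value was not tested. Rab8a, which delivers vesicles to the plasma membrane and the cilium, lay between 6.23 (rat 8) and 6.80 (rat 2) with a median of 6.41. By sets of highest mean it had the smallest p among negative slopes in locomotion (-0.11 ± 0.057, SE, n = 9, limma adjusted p = 1.00; unadjusted p = 0.0924, against 0.0925 for Rab34) and was among the leading genes in the plus maze (0.11 ± 0.057, SE, n = 9, limma adjusted p = 0.999) and sugar feeding (-0.082 ± 0.061, SE, n = 9, limma adjusted p = 1.00). Its plus maze r was 0.567 over 9 rats and -0.822 without rats 2 and 6 (exact permutation p = 0.108 and 0.0258), so that the positive sign rests on these animals, both at 18.7. Without rats 8 and 9 it was 0.595. The locomotion r of Rab8a kept its sign, at -0.573 over 9 rats, -0.379 without rats 1 and 3 and -0.477 without rats 8 and 9. Rab40c, a Rab that serves in ubiquitin ligase complexes, gave 0.11 ± 0.072 in locomotion (SE, n = 9, limma adjusted p = 1.00), with r of 0.475 over 9 rats, 0.093 without rats 1 and 3 and 0.530 without rats 8 and 9. In sugar feeding it gave 0.050 ± 0.079 (SE, n = 9, limma adjusted p = 1.00).

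**Figure D4:**
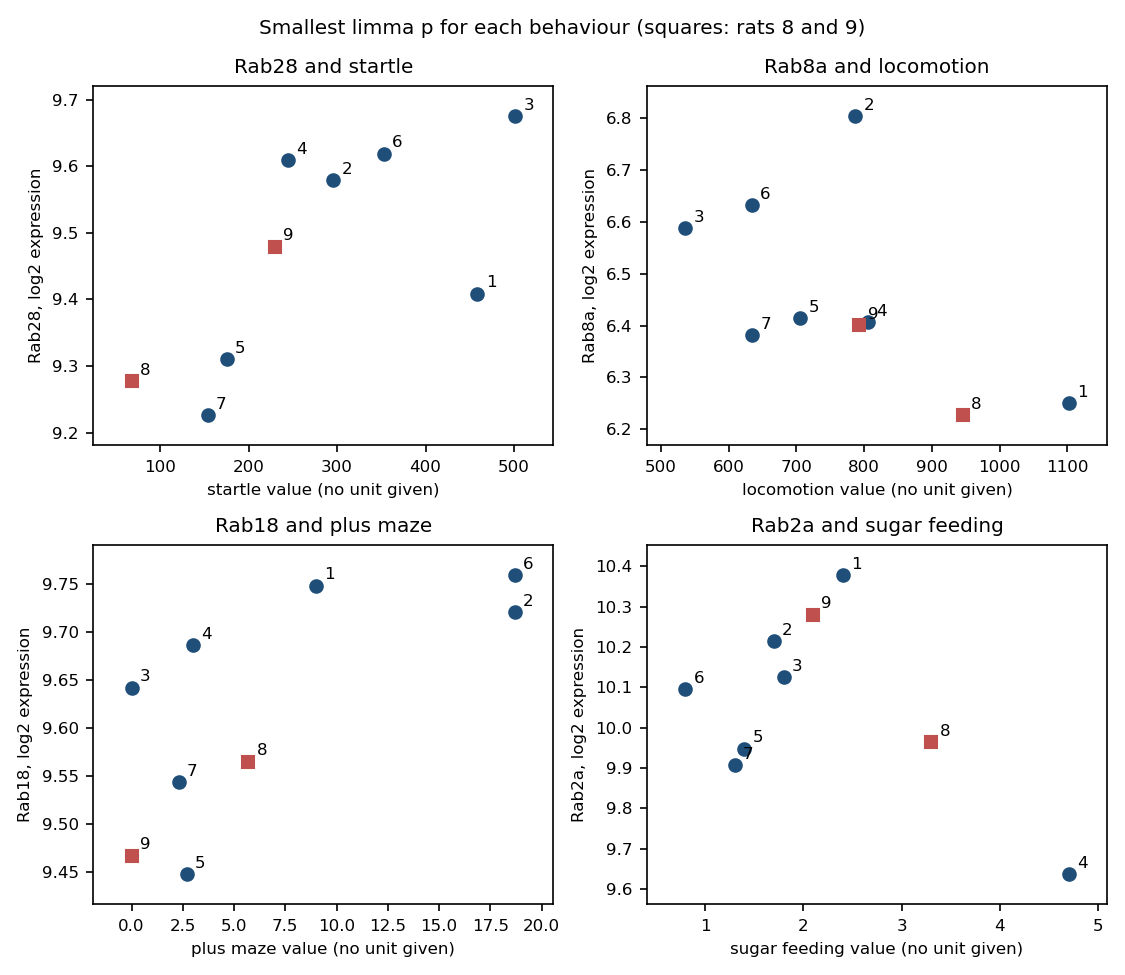
Log2 expression (y axis) against the behavioural value of each rat (x axis, no unit given) for the Rab gene of smallest p in each behaviour, by 1 probe set per gene, with rat numbers beside the points and squares for rats 8 and 9. Rab28 is lowest in the low-startle rats 5, 7 and 8, rat 2 is the highest for Rab8a, rats 1, 2 and 6 are the highest for Rab18, and Rab2a is lowest in rat 4 with the highest sugar feeding.

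Rats 8 and 9 lay beyond the range of the other 7 rats on the same side for 11 of 51 Rab probe sets (21.6%, from 10 genes), against 26.9% of all probe sets. There were 4 higher (9.33% of all probe sets) and 7 lower (17.6% of all). The widest gap belonged to the second Rab14 set, at 10.03 and 9.99 in rats 8 and 9, against 7.79 to 9.20 in the other 7. The second Rab5b set followed with 7.27 and 7.20 in rats 8 and 9, against 5.98 to 6.72 in the other 7. Rab1b, at 7.11 and 7.60, and the second Rab12 set, at 7.28 and 7.91, were also higher than the other 7 rats (6.33 to 6.82 and 6.84 to 7.19). The lower sets were led by the second Rab2b set, at 6.39 and 6.76 in rats 8 and 9, against 7.12 to 7.64. Rab5a followed with 7.53 and 8.49, against 8.75 to 9.18. Rab10, which acts in axon growth and insulin-driven exocytosis, stood at 8.84 and 8.92, against 9.15 to 9.31, and Rab11a at 8.56 and 8.35, against 8.78 to 9.13. Rab4a (7.82 and 7.71, against 7.90 to 8.17), the second Rab11a set and Rab33b, a Golgi and autophagy Rab, completed the list. With 1 probe set per gene the count was 6 of 37. The share over all genes counted in that way is not given here, so this count is not compared with a background. Red blood cell markers were highest in rat 8, and their part in these values was not tested.

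Probe sets of the same Rab gene often moved differently across the rats. For the 12 genes with several tested probe sets, the 17 pairs of sets had a median r of -0.080 over 9 rats and 0.15 without rats 8 and 9, and 9 pairs (52.9%) were negative over 9 rats. Over the 1313 such pairs of all tested genes the median r was 0.16 over 9 rats and 0.18 without rats 8 and 9, with 37.6% negative. These correlations describe sets on the same arrays. Sets 2 and 4 of Rab14, numbered by falling mean, were opposed (r of -0.746, and -0.847 without rats 8 and 9), which shows in rat 7, at 9.20 in set 2, above every rat but 8 and 9, and at 5.25 in set 4, the lowest of the 9. Rab5b's sets had an r of -0.657, and of -0.051 without rats 8 and 9. Rab11a's sets had an r of 0.600, and of -0.190 without them, and Rab5a's gave 0.253 and 0.674. RefSeq lists 13 rat genes whose symbol marks them as Rab pseudogenes (a Rab symbol with -ps), 6 of them of Rab1a. Pseudogenes under other symbols were not counted. Whether any probe set reads a pseudogene copy was not tested, so the level of Rab1a is given with that reserve.

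**Figure D5:**
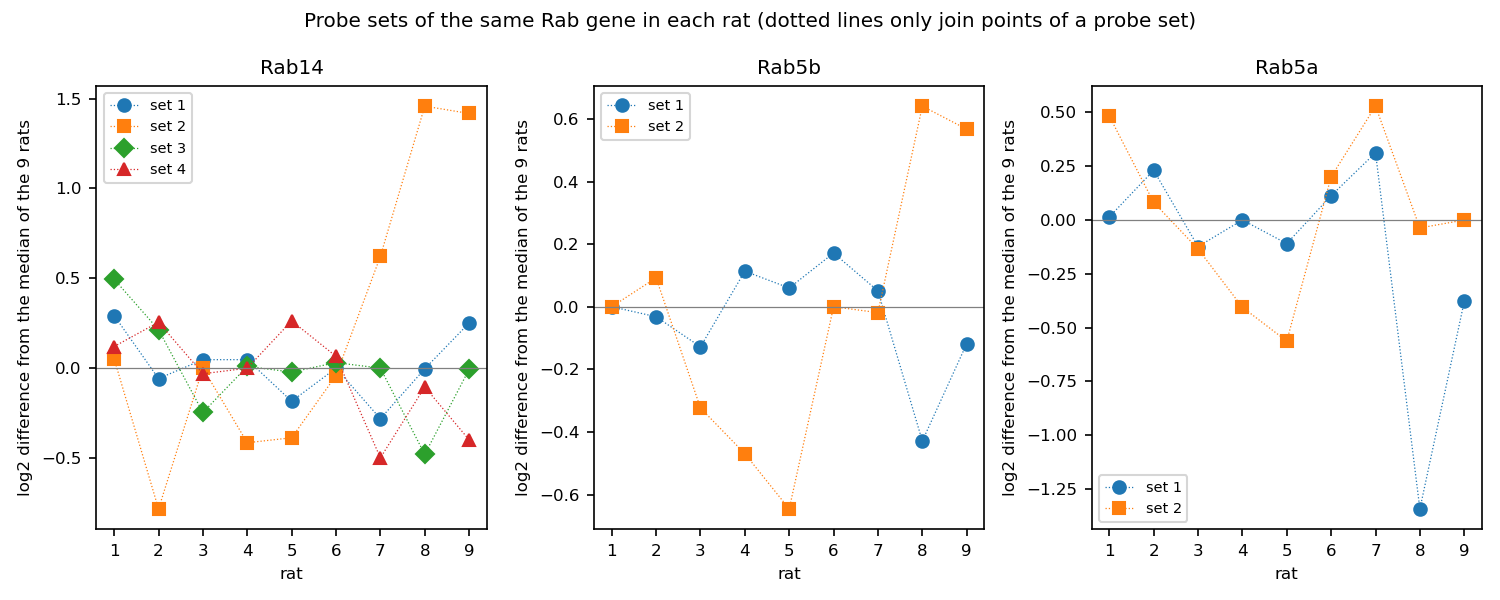
Log2 difference from the median of the 9 rats (y axis) in each rat (x axis) for every tested probe set of Rab14, Rab5b and Rab5a, numbered by falling mean, with dotted lines that only join points of a set. The second Rab14 and Rab5b sets are highest in rats 8 and 9 and the first Rab5a set is lowest there, and the other sets of these genes do not follow them.

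Spread between rats was ordinary for Rab genes. The median SD was 0.20 for the 51 Rab probe sets (0.044 to 0.88) and 0.19 for all probe sets, and the median fold between the highest and lowest rat was 1.54 for Rab genes and 1.52 for all. Levels spanned more than 2-fold in 10 Rab probe sets (19.6%), against 18.7% of all. Besides Rab5c (9.34-fold), these were led by the second Rab14 set (4.73-fold) and Rab5a (3.15-fold). Between genes, with 1 probe set each, the 666 pairs of Rab genes had a median r of 0.11 over 9 rats and -0.0099 without rats 8 and 9. The 102 pairs within a compartment gave medians of 0.11 and -0.00078. As a description, the closest pairs were Rab29 with Rab6a (r of 0.927, and 0.917 without rats 8 and 9), Rab4a with Rab9a (0.942 and 0.896), Rab34 with Rab6b (0.873 and 0.915) and Rab10 with Rab4a (0.890 and 0.822). Single rats weigh in some of these. Rat 3 was the lowest of the 9 rats in both Rab29 (6.98) and Rab6a (11.92), and rat 1 in both Rab34 (4.02) and Rab6b (11.70). These pairs were not correlated again without rat 3 or rat 1. Rab13 and Rab29 were opposed, at -0.770 and -0.989. Rat 3 had the highest Rab13 (4.29) and the lowest Rab29 (6.98) of the 9 rats. In rats 1, 2 and 4 to 7, Rab13 lay within 3.71 to 3.75 and Rab29 within 7.46 to 7.56. An r without rat 3 was not computed for this pair.

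Partners of the Rab cycle were tested in the same fit. Of 130 listed GEFs, GAPs, lipid-tail enzymes and effectors, 81 were on the array and 63, with 73 probe sets, were tested. None passed the adjusted test in any behaviour by limma. At an unadjusted limma p under 0.05 there were 7 in startle (9.59%, 4 positive and 3 negative, against 13.2% of all), 3 in locomotion (4.11%, all negative, against 1.96% of all), 3 in the plus maze (4.11%, 2 positive and 1 negative, against 2.99% of all) and 0 in sugar feeding (against 1.4% of all). Without rat 4, sugar feeding counted 11 of 73 partner probe sets (15.1%, against 14.0% of all in that fit). Median slopes were 0.0080, -0.0058, 0.0031 and 0.0020 in that order.

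In startle the positive partners of smallest p were Rabepk, a Rab9 effector (slope 0.10 ± 0.040), Rabggtb, the catalytic subunit of the geranylgeranyl transferase (0.14 ± 0.059), and Vps35, the retromer subunit of endosome recycling (0.14 ± 0.062). The negative ones were Myo5a, a myosin motor recruited by Rab proteins (-0.85 ± 0.29), Madd, a GEF for Rab3 proteins (-0.10 ± 0.041), and Rab11fip4, a Rab11 effector (-0.15 ± 0.063). Their limma adjusted p lay between 0.359 and 0.372 (SE, n = 9). Myo5a varied most of these, from 7.10 to 10.43 with a median of 7.89. Without rats 3 and 1, r went from 0.723 to 0.283 for Rabepk, 0.644 to 0.647 for Rabggtb and 0.638 to 0.730 for Vps35. For Myo5a it went from -0.698 to -0.639, for Madd from -0.719 to -0.699 and for Rab11fip4 from -0.651 to -0.571. Without rats 8 and 9, r was 0.449 to 0.851 for the positive partners and -0.655 to -0.526 for the negative ones. The other Madd set had a startle slope of -0.061 ± 0.11. In locomotion Rin2, a GEF for Rab5 (-0.14 ± 0.050), Bicd2, which links Rab6 to dynein (-0.10 ± 0.044), and Ehbp1l1, a Rab8 effector (-0.087 ± 0.038), led the negative slopes. Madd (0.052 ± 0.052), Tbc1d10b (0.059 ± 0.062) and Myo5a (0.34 ± 0.39) led the positive ones, all with limma adjusted p of 1.00 (SE, n = 9). Without rats 1 and 3, r went from 0.363 to 0.596 for Madd, 0.327 to 0.023 for Tbc1d10b and 0.275 to 0.411 for Myo5a. For Rin2 it went from -0.742 to -0.445, for Bicd2 from -0.699 to -0.473 and for Ehbp1l1 from -0.724 to -0.772. Without rats 8 and 9, r was 0.206 for Madd, 0.405 for Tbc1d10b, 0.034 for Myo5a and -0.784 to -0.679 for the negative partners. The other Madd set had a locomotion slope of 0.14 ± 0.10.

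In the plus maze Rabac1, which binds prenylated Rab proteins (0.10 ± 0.036), and Appl1, a Rab5 effector (0.099 ± 0.036), had positive slopes by their sets of highest mean, with Vps35 next (0.12 ± 0.067). The other 2 Appl1 sets had negative slopes of -0.04 and -0.08. Rabac1 and Appl1 rested on rats 2 and 6, since r was 0.795 and 0.796 over 9 rats and 0.152 and 0.250 without them. Without rats 8 and 9, r was 0.792 and 0.784. For Vps35, r was 0.547 over 9 rats, 0.213 without rats 2 and 6 and 0.842 without rats 8 and 9. Negative slopes were led by Dennd6b (-0.13 ± 0.049), Rph3a, the rabphilin that binds Rab3 (-0.23 ± 0.11), and Tbc1d1, a GAP (-0.092 ± 0.057), and limma adjusted p was 0.999 for all 6 (SE, n = 9). The r of Rph3a went from -0.564 over 9 rats to -0.205 without rats 2 and 6. Without them it was -0.738 for Dennd6b and -0.525 for Tbc1d1. Sugar feeding was led by Sgsm3 (0.071 ± 0.044), Golga2, a Golgi tether bound by Rab1 (0.12 ± 0.088), and Appl2 (0.056 ± 0.042) on the positive side. Exoc6, an exocyst subunit (-0.060 ± 0.042), Rabac1 (-0.064 ± 0.045) and Gcc2, a Golgi tether (-0.16 ± 0.14), led the negative side, again with limma adjusted p of 1.00 (SE, n = 9). Without rats 4 and 8, r turned from 0.549 to -0.301 for Sgsm3 and from 0.425 to -0.423 for Golga2. For Exoc6 it went from -0.523 to 0.0079. Appl2 (0.164), Rabac1 (-0.436) and Gcc2 (-0.388) kept their signs without these rats.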

How the data were processed

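Each of the 9 Lewis rats gave 1 array of biotin-labelled prefrontal cortex RNA. The authors deposited 1 log2 value for each probe set and rat. The submitters' processing notes name GCRMA and R (2.6.2) for this step. In general, GCRMA normalizes all arrays together and shrinks low signals toward a floor, so small changes of dim probe sets may be understated. Genes were named from the platform annotation, in which 12783 probe sets had 1 symbol, 312 several and 2771 none. Of 15923 rows, 57 control probe sets were left out, and 9520 remained after the 40% with the lowest mean (below 3.22) were removed.

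Slopes per SD of each behaviour were fitted with limma 3.58.1 (R 4.3.3; 7 residual degrees of freedom), with Benjamini-Hochberg adjustment over the 9520 and a threshold of 0.05. Correlations used exact two-sided permutation tests over all 362880 pairings of 9 rats, or 5040 of 7 (Python 3.11.15, scipy 1.17.1). They were run again after dropping, first, the 2 animals whose behaviour lay farthest from its median and, second, rats 8 and 9. Named were the 3 Rab genes of smallest p in each direction per behaviour, by the probe set with the highest mean, the leading genes of each compartment and those of largest spread, the 3 partners in each direction, and the largest gaps in rats 8 and 9. Rab5c, Rab3d, Rab3c and Rab27a were named for spread or for the filter. The members and gene lists were chosen with earlier results of these data known. Scripts were tested on simulated data. Alternatives are given in the closing section. The number of arrays limits the precision. Probe sets of the same gene are kept apart, and their levels are not compared with one another.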

Additional observations from a re-analysis of the deposited data

Results flagged for a closer look

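In 10 of the 51 Rab probe sets (19.6%) the highest or lowest of the 9 rats stood apart from the others, its gap to the nearest rat, as a share of the whole range, exceeding Dixon's 95% critical value for 9 samples. Chance gives about 1 in 20 probe sets, and 20.4% of all 9520 tested probe sets showed such a rat. Rat 8 was apart in the second Rab11b set (9.06, nearest rat 8.75), in the first Rab5a set (7.53, nearest 8.49) and in the first Rab5b set (8.19, nearest 8.49). Rat 9 was apart in the second Rab12 set (7.91, nearest 7.28), in Rab3d (3.33, nearest 3.40) and in Rab4b (4.74, nearest 4.98). Rat 7 was apart in the second Rab15 set (4.18, nearest 4.57) and in Rab35, a Rab of endosome recycling (4.51, nearest 3.92). Rab3b, a Rab of regulated secretion, was highest in rat 2 (7.01, nearest 6.89), and Rab13 was highest in rat 3 (4.29, nearest 3.75).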

How the results depend on the processing

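The count of Rab probe sets past the adjusted threshold stayed at 0 for all 4 behaviours, and so did the count of partners, under 20 alternatives: no filter or a filter at 70%, renewed quantile normalization, trend and robust limma, ranks, the other behaviours as covariates, a term for rats 8 and 9, leaving these out, array weights, dropping the 2 animals farthest from the median, a single probe set for every gene, and dropping each of the 9 rats in turn. The smallest adjusted p among Rab genes over these was 0.263 for startle, 0.364 for locomotion, 0.246 for the plus maze and 0.310 for sugar feeding. Unadjusted counts of Rab probe sets ran from 0 to 4, 0 to 3, 0 to 3 and 0 to 5 when 1 rat was left out, and from 1 to 7, 0 to 6, 0 to 3 and 0 to 2 under the other alternatives. The highest counts came without rats 3 and 1 for startle (13.7%, against 7.28% of all probe sets) and for locomotion (11.8%, against 13.2%), and without rat 4 for sugar feeding (9.80%, against 14.0%). Partner counts ran from 2 to 9, 0 to 9, 0 to 5 and 0 to 11 over all of these, the highest for locomotion without rats 1 and 3 (12.3%, against 13.2% of all) and for sugar feeding without rat 4 (15.1%, against 14.0%). Some slopes of the Rab genes changed sign, and the cause was not tested. Without the 2 farthest rats, the slope of Rab7a with startle was 0.059, of Rab1a with locomotion -0.075, of Rab8a with the plus maze -0.23 and of Rab2a with sugar feeding 0.29. Rab1b with startle was 0.0065 with a term for rats 8 and 9, Rab40c with sugar feeding was -0.0018 with array weights, and Rab8a with sugar feeding was 0.030 with the other behaviours as covariates. Leaving out 1 rat at a time moved Rab34 with locomotion between -0.18 and 0.016 (without rat 1) and Rab2a with sugar feeding between -0.14 and 0.048 (without rat 4). The count of 11 Rab probe sets beyond the range of the other 7 rats in rats 8 and 9 was 6 with 1 probe set per gene, and 8 to 11 under 3 other alternatives, all chosen after seeing the data. The shares over all probe sets under these alternatives are not given here, so the counts are not compared with a background. No paired analysis was possible because the labels define 1 group. Signal near the filter limits Rab27b, Rab3d, Rab13 and the second Rab22a set.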
